A study of Mus musculus with 18 samples.

Results

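The genes described here code for subunits of potassium, sodium and calcium channels. They were chosen by symbol alone, from the platform's probe annotation: every symbol that begins with Kcn or Cacn, and every symbol made of Scn, a number and the letter a or b. The rule took 121 of the 19057 genes that have a probe with a single symbol, through 252 of the 45281 probes on the array. Of the 121, 119 are channel subunits or channel regulators by name. The other two are noncoding RNAs that share the stem of the symbol: Kcnq1ot1, a long noncoding RNA made from the Kcnq1 locus, and Kcnmb4os1, which is named as an opposite-strand RNA of Kcnmb4. The subunits were sorted by symbol into 11 classes, such as voltage-gated potassium pores or sodium beta subunits.

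Expression was measured on Illumina BeadChips in mice labelled C57/BL6, the immune samples also as wild type. The immune cells were naive CD4 T cells (antigen-inexperienced helper cells), Th1 and Th2 cells (helper cells polarized towards interferon gamma and interleukin 4), B cells and dendritic cells, and brain was the tissue set against them. Each of these 6 groups was profiled on 3 arrays. Immune samples were labelled as male and female together and brain as male, so sex and tissue cannot be told apart in any comparison with brain. The design text calls the 3 arrays of a group biological replicates. The sources used here give no age, cell sorting or culture conditions.

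A voltage-gated potassium, sodium or calcium channel is built on a pore-forming subunit, and auxiliary subunits set how many channels reach the membrane and how they gate. Neurons use all 3 kinds to fire and shape action potentials. T cells are not electrically excitable, and in them potassium channels are known mainly for keeping the membrane negative, which sustains calcium entry through the store-operated channel made of Stim and Orai proteins after the antigen receptor is engaged. Kcna3 (Kv1.3) and Kcnn4 (KCa3.1, opened by calcium and calmodulin) are the textbook pair in T cells.

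Levels are given as log2 of the background-corrected and quantile-normalized signal, on which a gene with no signal lies near 4.2, and a probe counts as detected on an array at a detection p under 0.01. A channel gene is said to have passed a comparison when its limma adjusted p was under 0.05, with Benjamini-Hochberg adjustment over all 12094 genes tested, and its log2 difference was at least 1 in size. Where a group detected a gene on none of its arrays, the fold is a lower bound, written as at least N-fold. It sets the brighter group's mean against the lowest signal of any well-detected probe on the dimmer group's arrays. Where brain is the brighter side, each immune group that detected a gene on no array enters the immune mean at that lowest signal. Where brain is the dimmer side, such a group enters at its own level. The adjusted p and the pass always use the fitted difference, in which undetected arrays keep their own levels. An adjusted p printed beside a bound therefore tests the fitted difference and not the bound. A gene can pass while its bound lies under the 2-fold threshold. P-values are two-sided.

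The arrays detected 12564 to 20497 probes each. Mean background ranged over 34.7 to 39.4 signal units for the T cells, 35.9 to 38.9 for brain, 49.9 to 56.1 for B cells and 47.3 to 48.6 for dendritic cells, a split that follows the groups and cannot be told apart from them. All 6 neuron markers (Rbfox3, Syt1, Snap25, Stmn2, Tubb3 and Nefl) were undetected on every immune array, while brain detected 3 of the 6, without Snap25, Tubb3 and Nefl. Dendritic cell arrays detected 4 of 5 dendritic markers, Flt3 being the exception, but also 5 of 5 granulocyte markers, whose summed normalized signal was 34317 to 46054 there and 95.0 to 356 on the other immune arrays. They also detected 5 of 6 T cell markers (2174 to 3038, against 32532 to 33813 in naive CD4 T cells) and the 3 B cell markers measured (1733 to 3653, against 14202 to 15511 in B cells). The Th1 markers Ifng and Tbx21 summed to 23539 to 25241 on Th1 and 12190 to 14930 on Th2 arrays, and the Th2 markers Il4, Gata3 and Il13 to 24535 to 24928 on Th2 and 3357 to 4026 on Th1 arrays. Dendritic cell arrays also detected the 2 erythroid markers measured, with sums of 1901 to 9426, against 241 to 1862 in B cells and 81.9 to 235 in naive cells. They detected 3 of 5 NK and CD8 T cell markers (5435 to 6126, against 6552 to 8320 in Th1 cells). The part of all these other cells in the dendritic cell values below was not tested. RNA came from bulk samples, so fewer cells of a type and less RNA per cell cannot be told apart.

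Most channel genes were detected in brain, and few in immune cells. A probe was detected on all 3 brain arrays for 80 of the 121 genes (66.1%, against 54.4% of all genes), and on all 3 arrays of at least 1 immune group for 23 (19.0%, against 49.1% of all genes). Naive CD4 T cells detected 10 on all arrays, Th1 cells 8, Th2 cells 10, B cells 13 and dendritic cells 12. Of the 80 genes of brain, 52 were detected on no immune array, and 19 were shared with an immune group. The other 4 immune genes, Kcnn4, Kcnk5, Cacna2d4 and Kcnj1, were detected on all 3 arrays of an immune group and not on all 3 of brain. A further 28 genes were detected on no array. Among channels that have been described in leukocytes, both Cacna1f probes were undetected throughout, 1 of 7 Cacna1c probes was detected on a single Th2 array, and Kcnj2 was detected on 2 brain arrays only.

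**Figure D1:**
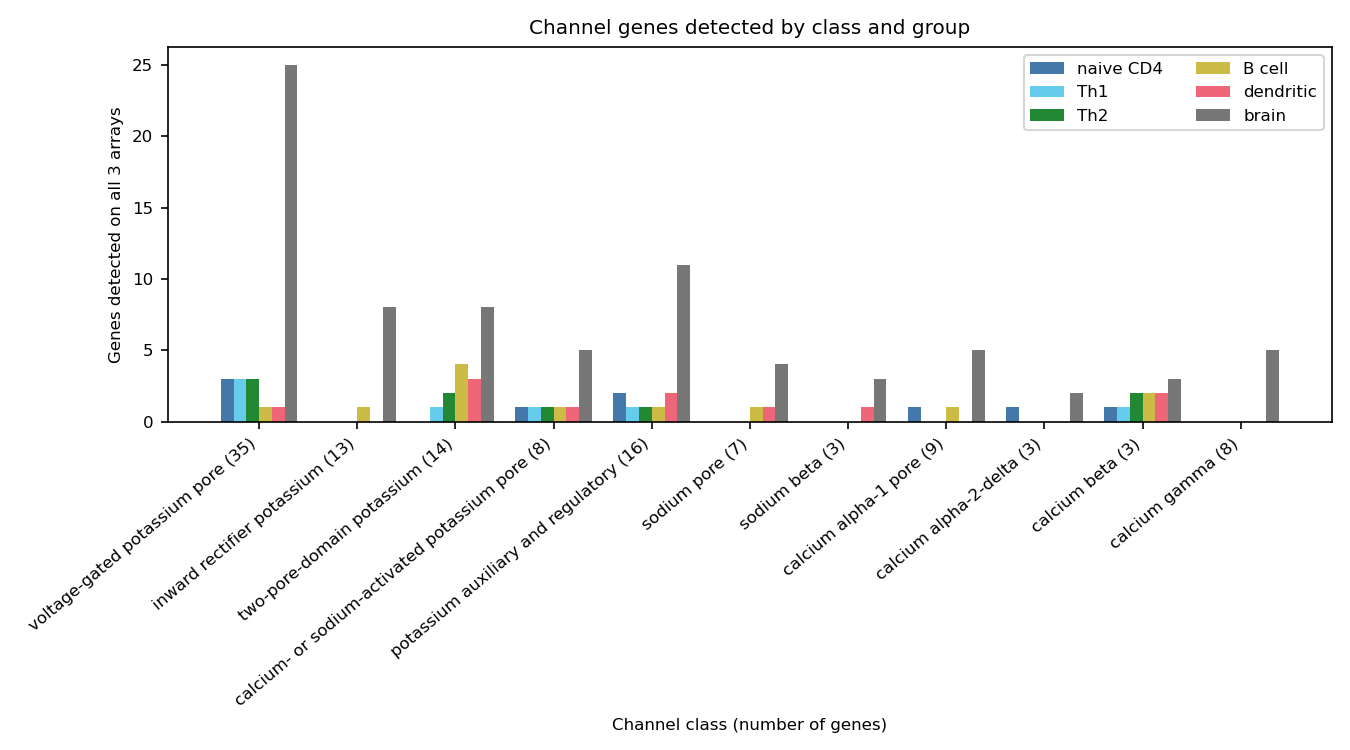
Number of channel genes (y axis) detected on all 3 arrays of each group, for 11 channel classes (x axis, with the number of genes in each class); bars are the 6 groups. Voltage-gated potassium pores reach 25 of 35 in brain and at most 3 in an immune group, and two-pore-domain channels reach 8 in brain and 4 in B cells.

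By class, brain detected 25 of 35 voltage-gated potassium pores, all 3 sodium beta subunits and all 3 calcium beta subunits, and 5 of 8 calcium gamma subunits. Calcium gamma subunits, which regulate calcium channels and AMPA receptors, were the one class with no gene detected on all arrays of an immune group. The immune genes were spread over the other classes. By count, the large classes held the most: 5 of 35 voltage-gated potassium pores, 4 of 14 two-pore-domain channels and 3 of 16 auxiliary or regulatory potassium subunits. Of smaller classes, calcium beta subunits gave 2 of 3 and sodium pores 2 of 7.

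**Figure D2:**
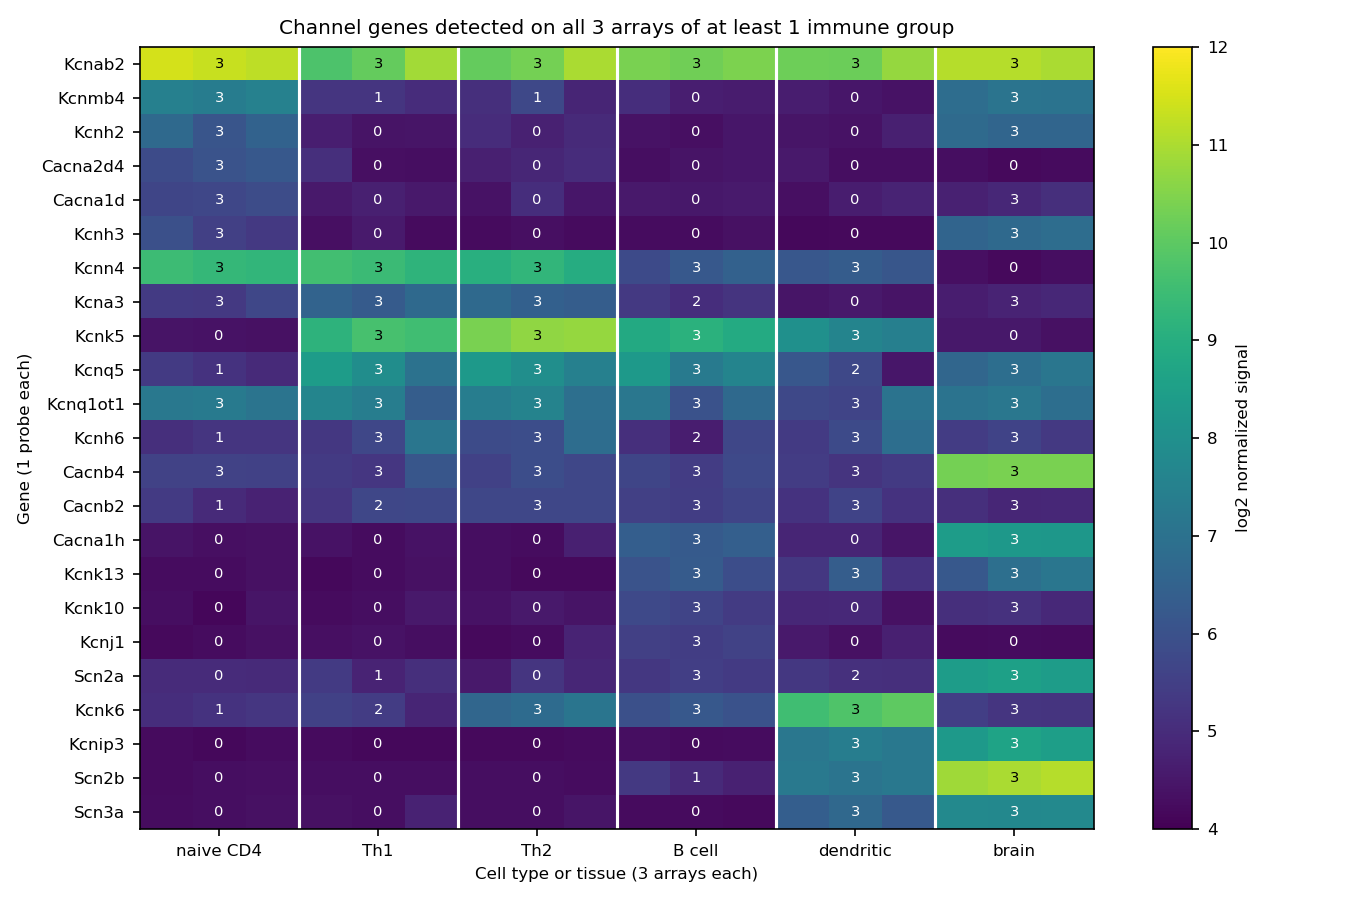
Levels (colour, log2 normalized signal) of the 23 channel genes detected on all 3 arrays of an immune group (y axis) on each of the 18 arrays (x axis, 3 per group); the digit in each block is the number of the 3 arrays that detected the probe. Kcnab2 is detected everywhere. Kcnn4 is detected in all immune groups and Kcnk5 in all but naive cells, and brain detects neither. Scn2b and Kcnip3 are detected in dendritic cells and brain. For Cacna1d the probe shown is the one detected in naive cells, not the brightest.

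The calcium-activated potassium pore Kcnn4 was detected on all 15 immune arrays and was highest in the T cell groups. Its level was 9.50, 9.32 and 9.26 on the naive CD4 arrays, 9.57, 9.45 and 9.19 on the Th1 arrays and 9.03, 9.26 and 8.96 on the Th2 arrays. B cells lay at 5.81, 6.20 and 6.48 and dendritic cells at 6.17, 6.34 and 6.14, both detected and both below every T cell array. Brain did not detect it, at 4.22 to 4.33. In deposited signal units before any correction, the 3 naive arrays read 612, 420 and 484, and the brain arrays 41.1, 33.0 and 42.1, which is close to background.

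Kcnn4 was lower in B cells than in naive CD4 T cells by 9.17-fold (log2 difference -3.20 ± 0.15 SE, adjusted p = 3.04e-11, limma), and lower in dendritic cells by 8.83-fold (-3.14 ± 0.15, adjusted p = 2.12e-11, limma). In dendritic cells against B cells the difference was 0.05 ± 0.15 (95% interval -0.27 to 0.37), and the groups overlapped. Th1 and Th2 cells did not pass against naive cells, with differences of 0.05 (-0.27 to 0.37) and -0.27 (-0.59 to 0.04). Brain was at least 27.5-fold below naive cells. T cell markers summed to 416 to 882 on the B cell arrays, where 5 of 6 were detected, and their part in the B and dendritic cell level of Kcnn4 was not tested.

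The voltage-gated pore Kcna3 was also detected in all 3 T cell groups, and was higher in the polarized ones. Naive cells gave 5.35, 5.33 and 5.70, Th1 cells 6.55, 6.31 and 6.74, and Th2 cells 6.72, 6.47 and 6.36, so that every Th1 and Th2 array lay above every naive array. B cells lay at 5.06 to 5.33 with 2 of 3 arrays detected, and dendritic cells were undetected at 4.43 to 4.54. The rise was 2.11-fold in Th1 cells (1.07 ± 0.14, adjusted p = 3.71e-06, limma) and 2.08-fold in Th2 cells (1.06 ± 0.14, adjusted p = 4.83e-06). Both values sit at the fold threshold, and each fell below it with no background correction, an offset of 50, the authors' scaled signal, cyclic loess or median scaling. The Th1 call was also lost without the third Th1 array, and the Th2 call without the first Th2 array or the first or second naive array. Th1 and Th2 cells differed by 0.02 ± 0.14 (-0.27 to 0.31). Brain detected Kcna3 at 4.77 on average, below both effector groups.

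The two-pore-domain channels, which leak potassium at rest and set the resting potential, held the largest differences between immune groups, those of Kcnk5 and Kcnk6. Kcnk5 (TASK-2), a channel opened by alkaline pH, was undetected on the naive arrays at 4.42, 4.38 and 4.35 and on the brain arrays at 4.53, 4.53 and 4.36. It read 9.16, 9.67 and 9.54 in Th1 cells and 10.40, 10.66 and 10.73 in Th2 cells. B cells gave 8.87, 9.10 and 8.89, and dendritic cells 8.02, 7.60 and 7.44. No 2 of these detected groups overlapped. In deposited units the naive arrays read 39.6, 37.3 and 38.9 and the Th2 arrays 955, 964 and 951.

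Against naive CD4 T cells, Kcnk5 was at least 19.0-fold higher in Th1 cells (adjusted p = 1.05e-13) and at least 41.9-fold higher in Th2 cells (adjusted p = 1.23e-14), both by limma. B cells were at least 13.4-fold (adjusted p = 5.85e-13) and dendritic cells at least 5.57-fold (adjusted p = 1.41e-11, limma) above naive cells. Th1 cells were lower than Th2 cells by 2.20-fold (-1.14 ± 0.15, adjusted p = 5.95e-05, limma), with no overlap. That call was lost without the first Th1 array and under median scaling. In order, the levels ran Th2, Th1, B cell, dendritic cell, and then naive and brain, which were both undetected. The neighbours Th1 and B cell differed by 0.51 (adjusted p = 0.0097, limma), less than the 2-fold threshold. A second Kcnk5 probe, dimmer throughout, was at least 3.74-fold and at least 7.58-fold higher in Th1 and Th2 cells than in naive cells and gave -1.02 for Th1 against Th2, while its dendritic cell difference did not pass.

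Of the 4 immune genes not detected on all brain arrays, Kcnn4 and Kcnk5 differed most from brain, and the 250 bases before their annotated starts are shown for comparison. They are RefSeq sequences of GRCm38.p6, 5′ to 3′ on the gene's own strand, with each CG dinucleotide in capitals: Kcnn4 at chr7:24370013-24370262 on the plus strand and Kcnk5 at chr14:20181783-20182032 on the minus strand.
Kcnn4 promoter: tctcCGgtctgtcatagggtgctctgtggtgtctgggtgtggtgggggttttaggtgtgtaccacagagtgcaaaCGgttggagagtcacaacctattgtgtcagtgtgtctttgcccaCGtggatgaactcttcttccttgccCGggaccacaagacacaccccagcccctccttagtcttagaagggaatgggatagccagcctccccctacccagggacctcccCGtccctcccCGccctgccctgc
Kcnk5 promoter: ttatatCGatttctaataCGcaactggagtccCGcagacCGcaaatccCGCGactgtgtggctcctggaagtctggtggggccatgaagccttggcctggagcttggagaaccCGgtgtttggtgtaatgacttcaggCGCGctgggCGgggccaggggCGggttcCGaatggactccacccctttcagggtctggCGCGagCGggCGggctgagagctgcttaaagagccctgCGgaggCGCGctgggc
The Kcnn4 stretch holds 6 CG and the Kcnk5 stretch 19. CG, which reads the same on both strands, occurs in 92.1% of the 32851 RefSeq windows of that length, with a median of 6 and quartiles of 2 and 16. The counts describe these letters only, and methylation was not analysed here.

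Kcnk6 (TWIK-2), another two-pore-domain channel, was highest in dendritic cells, at 9.54, 9.80 and 10.01. Th2 cells followed at 6.64, 6.78 and 7.11 and B cells at 5.94, 6.21 and 6.03, above Th1 cells (5.55, 5.43 and 4.82, with 2 of 3 arrays detected) and naive cells (5.05, 5.17 and 5.26, with 1 of 3). The dendritic cell arrays lay above every other array of the series. Deposited signals were 956, 956 and 895 there and 46.4, 44.4 and 48.8 on the naive arrays. Kcnk6 was 24.6-fold higher in dendritic than in naive CD4 T cells (4.62 ± 0.18, adjusted p = 1.35e-12, limma) and 13.2-fold higher than in B cells (3.72 ± 0.18, adjusted p = 3.28e-11). It was 2.99-fold lower in Th1 than in Th2 cells (-1.58 ± 0.18, adjusted p = 8.95e-06), a call lost with no background correction and with the authors' scaled signal. A second Kcnk6 probe was at least 9.11-fold higher in dendritic than in naive cells, and its Th1 minus Th2 difference of -0.72 did not pass. Monocyte markers (Lyz2, Csf1r and Cd14) also summed highest there, to 6705 to 9689, against 59.9 to 245 on the other immune arrays, and their part in Kcnk6 was not tested.

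The other two channels of this class that B cells detected were undetected in T cells. Kcnk13 (THIK-1) lay at 6.06, 6.31 and 5.89 in B cells and 5.31, 6.35 and 5.18 in dendritic cells, and was undetected in the 3 T cell groups. Brain detected Kcnk13 on all 3 arrays, at 6.75 on average. Kcnk13 was at least 1.83-fold higher in B than in naive cells (adjusted p = 2.88e-05, limma) and at least 1.32-fold higher in dendritic than in naive cells (adjusted p = 0.000355). The dendritic cell call was lost with no background correction, an offset of 50, cyclic loess, the authors' scaled signal, or without the second dendritic cell array. Kcnk10 (TREK-2), a stretch- and lipid-sensitive channel, reached only 5.77, 5.65 and 5.39 in B cells, at least 1.31-fold above naive cells.

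**Figure D3:**
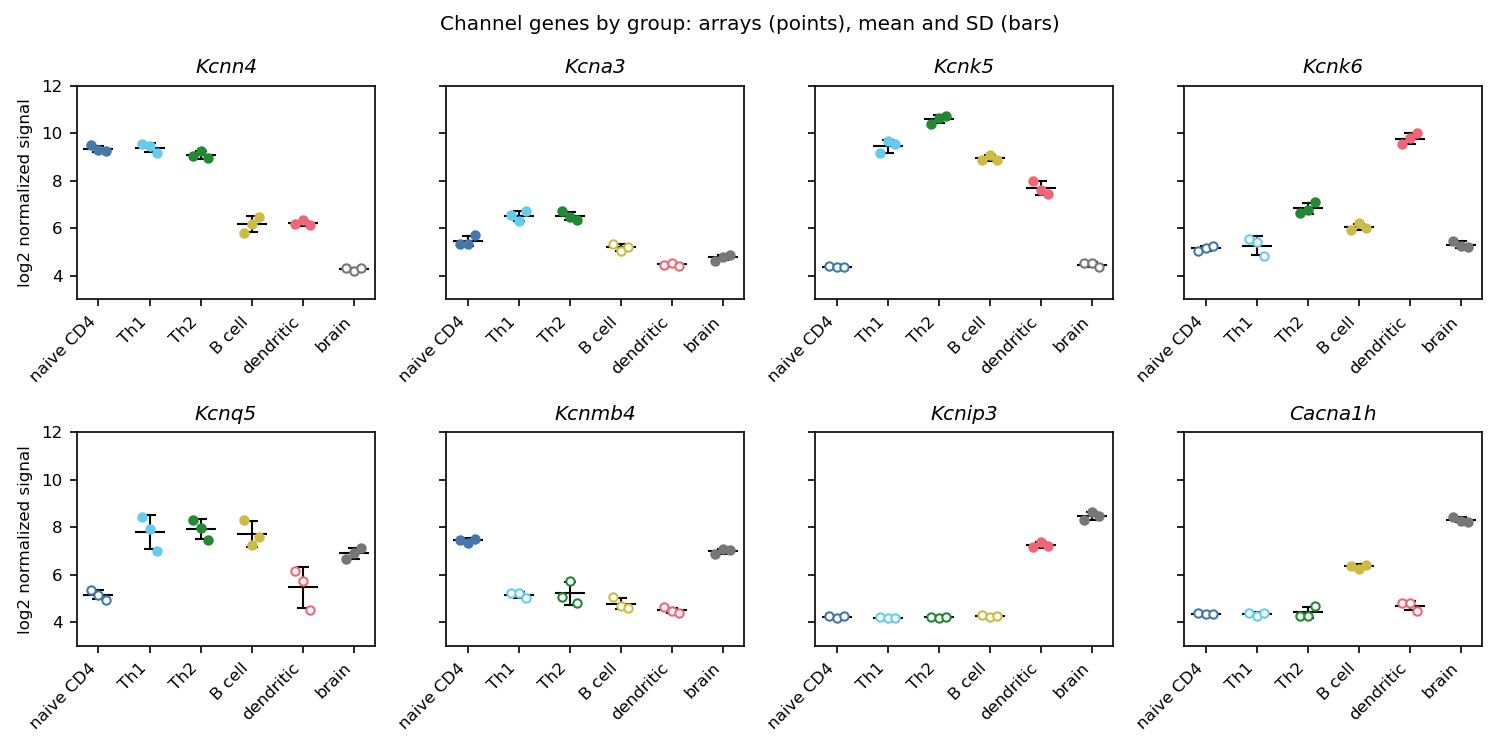
Levels (y axis, log2 normalized signal) of 8 channel genes in the 6 groups (x axis); points are arrays, filled where all 3 arrays of the group detected the probe and open otherwise, and bars are the mean and SD. Kcnn4 lies between 8.96 and 9.57 in the 3 T cell groups and between 5.81 and 6.48 in B and dendritic cells, while Kcnk5 runs from undetected in naive cells to 10.60 in Th2 cells.

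A group of 4 genes detected on all naive CD4 arrays was detected on at most 1 array of each other immune group. They are Kcnmb4, Kcnh2, Kcnh3 and Cacna2d4. Brain detected the first 3 on all its arrays, with means of 6.99, 6.66 and 6.72, and did not detect Cacna2d4. Kcnmb4, the beta-4 subunit that modulates the large-conductance calcium-activated channel, read 7.48, 7.35 and 7.52 in naive cells, 5.02 to 5.24 in Th1 cells and 4.82 to 5.74 in Th2 cells, with 1 of 3 arrays detected in each of these. It was lower by 4.87-fold in Th1 cells (-2.28 ± 0.18, adjusted p = 1.34e-08, limma) and by 4.72-fold in Th2 cells (-2.24 ± 0.18, adjusted p = 1.92e-08), and its level in B cells was at least 5.07-fold and in dendritic cells at least 5.30-fold below naive cells. Its second probe, undetected in Th1 and Th2 cells, was at least 2.12-fold and at least 2.13-fold lower there. The pore subunit it modulates, Kcnma1, was undetected on all immune arrays, with levels of 4.24 to 4.55, and stood at 9.16 in brain.

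Kcnh2 (the ERG channel of cardiac repolarization) read 6.74, 6.10 and 6.50 in naive cells and was undetected in every other immune group, at least 2.05-fold lower in Th1 and at least 2.06-fold lower in Th2 cells (adjusted p = 7.16e-09 and 1.23e-07, limma). The related Kcnh3 read 5.94, 5.50 and 5.32 and was at least 1.13-fold and at least 1.14-fold lower there. Kcnh3 passed on its fitted log2 differences, -1.21 in Th1 and -1.32 in Th2 cells, and its bounds lie under the fold threshold. Cacna2d4, an alpha-2-delta subunit best known from the retina, read 5.82, 6.04 and 6.21 and was at least 1.52-fold and at least 1.53-fold lower. The naive signals of these genes lie close to the lowest detected signal. With no background correction, an offset of 50 in place of 16, or the authors' scaled signal, the Kcnh3 and Cacna2d4 calls were lost in all 4 comparisons with naive cells, and the Kcnh2 call in Th2 cells. The authors' signal also lost the Kcnh2 call in Th1 and dendritic cells, median scaling lost Kcnh3 in all 4, and cyclic loess lost it in Th1 and Th2 cells. The Cacna1d probe that naive cells detected (5.69, 5.71 and 5.85) was undetected in the other 4 immune groups, from at least 1.26-fold lower in Th1 to at least 1.63-fold lower in dendritic cells, whereas the brightest probe of this L-type calcium pore, which stands for the gene, did not pass in any of them.

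Kcnq5, a pore of the M-current family, went the other way in T cells. Naive cells read 5.37, 5.17 and 4.96, with 1 of 3 arrays detected, Th1 cells 8.43, 7.93 and 7.01, and Th2 cells 8.32, 7.96 and 7.47. B cells were alike at 8.32, 7.25 and 7.59, and dendritic cells were lower and scattered, at 6.17, 5.73 and 4.50. Brain detected this probe on 3 of 3 arrays, at 6.90 on average. Kcnq5 was 6.17-fold higher in Th1 (2.63 ± 0.40, adjusted p = 2.69e-05, limma), 6.75-fold higher in Th2 (2.75 ± 0.40, adjusted p = 1.71e-05) and 5.89-fold higher in B cells (2.56 ± 0.40, adjusted p = 7.34e-05) than in naive cells. The groups did not overlap. Another Kcnq5 probe, detected on the 3 brain arrays and on no immune array, showed none of this, with differences of -0.13 to -0.04, so the rise rests on 1 probe.

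Kcnab2, the beta-2 subunit that binds Kv1 pores, was detected on every array. It read 11.50, 11.33 and 11.21 in naive cells, 9.78, 10.12 and 10.89 in Th1 cells, and 10.10, 10.34 and 10.99 in Th2 cells. B cells lay at 10.28 to 10.43, dendritic cells at 10.19 to 10.74, and brain at 11.00 to 11.12. The Th1 difference of -1.09 ± 0.25 (adjusted p = 0.00115, limma) passed, and was lost without the first Th1 array, under cyclic loess and under median scaling. The differences of Th2, B and dendritic cells, -0.87, -0.99 and -0.96, were below the fold threshold. Kcnh6, an ERG-type pore, showed 1 high array in each of 3 groups: 7.15 in Th1, 6.84 in Th2 and 6.89 in dendritic cells were all the third replicate, against 5.31 to 5.89 on the other 6 arrays. It passed in no comparison.

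A calcium pore and an inward rectifier were detected at low level in B cells and in no other immune group. Cacna1h (Cav3.2), a T-type calcium pore that opens at small depolarizations, read 6.38, 6.26 and 6.43 in B cells and was undetected in all other immune groups. It was at least 2.22-fold higher than in naive cells (adjusted p = 1.27e-09, limma) and at least 2.49-fold higher than in dendritic cells (adjusted p = 1.33e-08), and brain stood above it at 8.44, 8.27 and 8.24. Kcnj1 (ROMK), an inward rectifier known from the kidney, read 5.50, 5.45 and 5.58 in B cells alone, at least 1.23-fold above naive cells (adjusted p = 1.31e-06). The B cell calls of Kcnj1, Kcnk10 and Kcnk13 against naive cells were lost with no background correction, an offset of 50 or the authors' scaled signal. So was the Cacna1h call against dendritic cells, while its call against naive cells was lost with the authors' scaled signal.

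Dendritic cells shared 3 genes with brain that the other immune groups detected on at most 1 array. Kcnip3 (DREAM, a calcium-binding partner of Kv4 channels and transcriptional repressor) read 7.16, 7.38 and 7.20 in dendritic cells, 8.29, 8.65 and 8.50 in brain and 4.16 to 4.30 elsewhere. It was at least 4.10-fold higher than in naive cells (adjusted p = 1.90e-13, limma) and at least 4.40-fold higher than in B cells (adjusted p = 3.25e-13). Scn2b, a sodium channel beta subunit with an immunoglobulin fold, read 7.23, 7.08 and 7.20 in dendritic cells and 10.86, 11.00 and 11.11 in brain, and was at least 3.89-fold above naive cells (adjusted p = 5.70e-12). A second Scn2b probe was at least 1.79-fold above naive cells, while another was undetected in both. Scn3a, the Nav1.3 pore, read 6.38, 6.71 and 6.22 in dendritic cells, at least 2.34-fold above naive cells (adjusted p = 4.10e-10), and 7.75 in brain; the Scn3a call was lost with the authors' scaled signal. The 6 neuron markers were undetected on the dendritic cell arrays, but 3 of them (Snap25, Tubb3 and Nefl) were undetected in brain as well. A neuronal part in these genes was not tested. Granulocyte and monocyte markers were highest there, and their part in these 3 genes was not tested. Both promoters below are GRCm38.p6 sequence with the CG in capitals, Kcnip3 at chr2:127482500-127482749 on the minus strand and Scn2b at chr9:45117626-45117875 on the plus strand, shown because these genes moved together.
Kcnip3 promoter: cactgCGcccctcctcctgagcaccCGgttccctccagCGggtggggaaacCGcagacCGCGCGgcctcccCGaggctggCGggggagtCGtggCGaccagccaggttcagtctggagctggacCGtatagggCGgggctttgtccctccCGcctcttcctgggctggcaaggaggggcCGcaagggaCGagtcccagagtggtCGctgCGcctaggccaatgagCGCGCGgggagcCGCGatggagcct
Scn2b promoter: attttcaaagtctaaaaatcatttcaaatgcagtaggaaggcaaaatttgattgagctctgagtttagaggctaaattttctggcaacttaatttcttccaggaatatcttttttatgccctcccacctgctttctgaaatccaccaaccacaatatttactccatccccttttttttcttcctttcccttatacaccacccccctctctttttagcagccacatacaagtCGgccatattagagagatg
They hold 23 and 1 CG. Of the 3 starts listed for Kcnip3, the one whose window has the most CG was taken, whereas Scn2b has 1 listed start. The 2 counts are therefore not alike in how their windows were picked. A RefSeq window was given for 92 of the 121 genes (76.0%), under the 80% needed for a check over the set, so no comparison of promoters between channel genes and others was made.

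Cacnb2 and Cacnb4, cytoplasmic calcium channel beta subunits, lay at 4.78 to 5.73 and 5.19 to 6.13 in immune cells, Scn2a at 4.55 to 5.48, and none of these 3 passed in any of the 6 comparisons between immune groups. The noncoding RNA Kcnq1ot1 was detected on all 15 immune arrays and was lower in dendritic than in naive cells by 2.07-fold (-1.05 ± 0.37, adjusted p = 0.0251, limma), a call that 9 of 29 alternative settings lost, among them leaving out the first or second naive or dendritic cell array.

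Counted over the 84 channel genes tested, 8 passed for Th1 against naive CD4 T cells, 3 higher and 5 lower, when 28.4% of all genes tested passed, 13% higher and 15.4% lower. For Th2 against naive cells 8 passed, 4 higher and 4 lower, against 27% of all genes, 12.6% higher and 14.4% lower. For Th1 against Th2 2 passed, both lower, against 4.5% of all genes, 2.18% higher and 2.32% lower; without the first Th1 array 1 passed, and without the first Th2 array 3. B cells against naive cells gave 11, 6 higher and 5 lower, against 14.2% of all genes, 7.3% higher and 6.92% lower. Dendritic against naive cells gave 12, 6 higher and 6 lower, against 23% of all genes, 13.2% higher and 9.83% lower. Dendritic against B cells gave 7, 4 higher and 3 lower, against 14.7% of all genes, 10.2% higher and 4.53% lower. With the authors' scaled signal the splits became 2 higher and 1 lower for Th2, 2 and 3 for B cells and 4 and 2 for dendritic cells against naive cells. Median scaling gave 7 and 4 for dendritic against naive cells. The F-test over the 5 immune groups called 18 of the 84, against 53.4% of all genes. Of the channel genes, 52 were detected in brain and on no immune array, so nothing is read from these shares. Median differences of the 84 lay between -0.02 and 0.03 in the 6 comparisons, and those of all genes between -0.05 and -0.01.

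When brain was set against all 5 immune groups, 52 channel genes were higher and 3 lower, when 25.7% of all genes were higher and 26.6% lower. The median fitted difference was 1.73 over the channel genes and -0.15 over all genes tested. Of the 84, 76 were undetected in at least 1 whole immune group, and with the genes that have only a bound set at it, the channel median was 0.88. Of the 84, 45 were higher in brain than in each immune group, against 18.9% of all genes. Many of them entered the test only because brain detected them, so these counts describe the set and support nothing by themselves. The 3 lower genes were Kcnn4, at least 11.1-fold, Kcnk5, at least 12.5-fold, and Kcnk6, by 2.49-fold (-1.32 ± 0.14, adjusted p = 1.24e-07, limma). The Kcnk6 call was lost with no background correction, under the authors' scaled signal, under cyclic loess and under median scaling. These are differences from the immune mean and not from each immune group. Kcnk6 stood at 5.31 in brain, against 5.16 in naive and 5.26 in Th1 cells. Kcnk5 was undetected in naive cells as in brain. Under median scaling, 61 were higher and 2 lower.

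**Figure D4:**
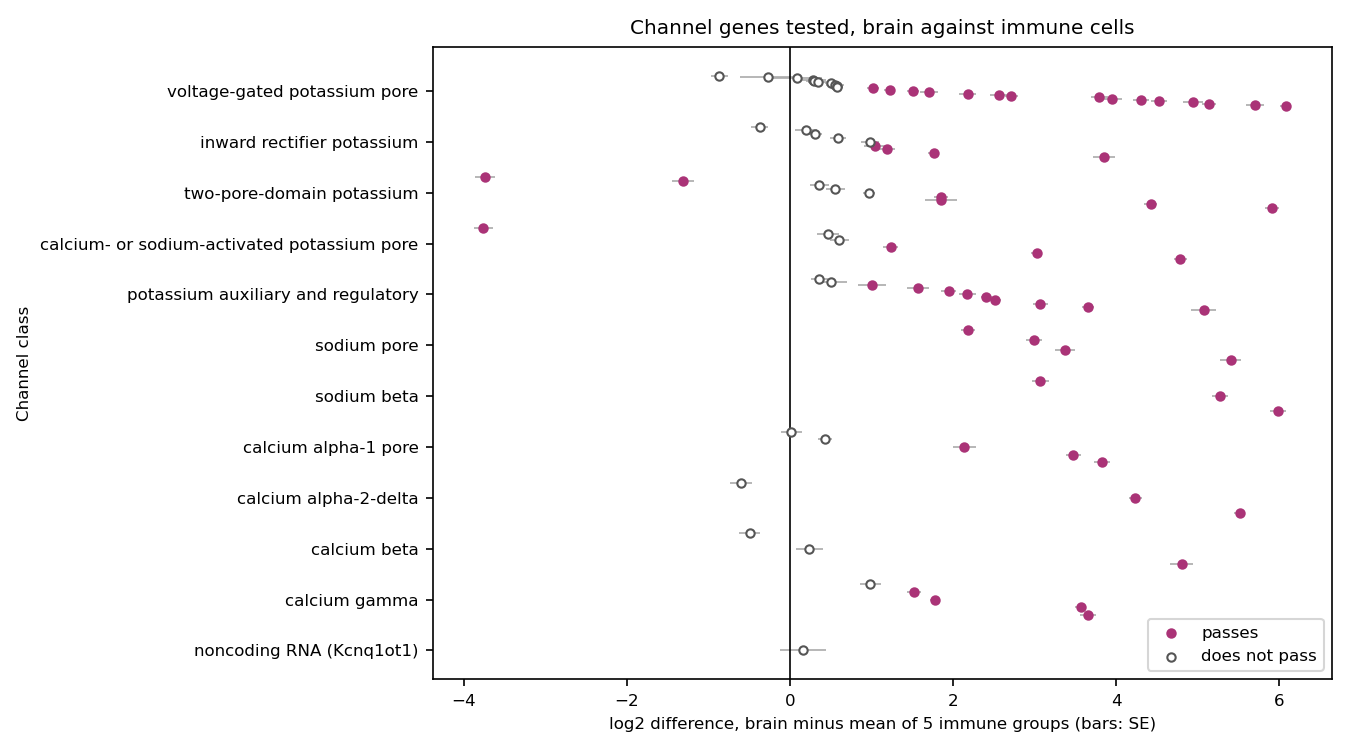
Difference between brain and the mean of the 5 immune group means (x axis, log2) for the 84 channel genes tested, by class (y axis); points are genes at their fitted difference, which for a gene undetected in whole immune groups is no bound, bars are SE, and filled points passed. Of these, 52 filled points lie to the right of 0 and 3 to the left, with the 4 sodium pores and 3 sodium beta subunits all on the right.

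The examples below are the 3 detected genes of each class with the highest brain signal, which sets no level of one gene against another. Kcnd2 (Kv4.2, the dendritic A-type current) read 10.27, 10.42 and 10.19 in brain and 4.14 to 4.28 on the 15 immune arrays, none of which detected it. That is at least 33.4-fold (adjusted p = 9.04e-21, limma). Kcnc4 (Kv3.4) stood at 10.23, 10.30 and 10.20, at least 32.3-fold above immune cells, and Kcna6 (Kv1.6), detected on 1 of 15 immune arrays, at 9.50, 9.81 and 9.76, at least 22.4-fold. In all, 15 of the 25 voltage-gated potassium pores tested, from 35 on the array, passed higher. The share of all genes, 25.7%, belongs beside each class count here and below. All 25 were detected in brain, and many channel genes entered the test only that way, so the class counts only describe the set. Kcnk1 (TWIK-1) read 10.34, 10.30 and 10.24 and Kcnk2 (TREK-1) 8.76, 8.79 and 8.70, at least 33.4-fold and at least 11.4-fold above immune cells. Kcnma1 (BK) read 9.31, 9.06 and 9.12, at least 15.2-fold, and the sodium-activated Kcnt1 7.13, 7.40 and 7.21, at least 4.02-fold; Kcnn2, a small-conductance calcium-activated pore, read 5.79 ± 0.18 (SD, n = 3) in brain and 4.80 to 5.79 in immune cells and did not pass.

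Of the 9 inward rectifiers tested, 4 passed higher. Kcnj4 (Kir2.3), detected on 1 of 15 immune arrays, read 8.22, 8.52 and 8.38, at least 9.05-fold above immune cells (adjusted p = 2.46e-14, limma), and Kcnj12 (Kir2.2) and Kcnj16 (Kir5.1) stood at 6.03 and 5.60. Auxiliary subunits passed higher in 9 of the 11 tested. Kcnab1, the beta-1 partner of Kv1 pores, read 9.55, 9.58 and 9.66, at least 21.1-fold above immune cells (adjusted p = 5.44e-15, limma), which detected it on 1 of 15 arrays. Its paralogue Kcnab2, detected on all of them, differed by 0.51 and did not pass.

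All 4 sodium pores and all 3 sodium beta subunits tested were higher in brain. Scn1a (Nav1.1) read 9.85, 9.92 and 9.49, at least 22.9-fold above immune cells (adjusted p = 2.95e-16, limma). Scn2a (Nav1.2) read 8.43, 8.54 and 8.44 and was at least 9.34-fold higher, and Scn3a at least 4.72-fold. Scn2b, detected on 4 of 15 immune arrays, was at least 40.8-fold higher (adjusted p = 1.11e-18, limma), although the probe with no rise in dendritic cells did not pass. Scn4b, detected on 1 of 15, read 9.61, 9.73 and 9.72, at least 22.2-fold higher, and Scn3b 6.98, 7.23 and 7.72, at least 4.21-fold. Sodium channels carry the upstroke of the action potential, and their beta subunits tune gating and adhesion.

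Among calcium channel genes, the T-type pore Cacna1g read 7.98, 8.41 and 8.20 in brain and Cacna1h was at least 7.11-fold above immune cells. Cacna1g was at least 7.80-fold above immune cells (adjusted p = 4.69e-16, limma), and the P/Q-type pore Cacna1a, at 6.68, 6.91 and 6.65, at least 2.85-fold. The alpha-2-delta subunits, which carry channels to the membrane, passed in 2 of 3 cases: Cacna2d1 read 9.81, 9.71 and 9.69, at least 22.7-fold (adjusted p = 1.94e-20), and Cacna2d3 8.71, 8.67 and 8.83, at least 11.3-fold. Cacnb4 read 10.32, 10.39 and 10.39, a difference of 4.80 ± 0.14 (adjusted p = 1.99e-15), while Cacnb1 and Cacnb2 did not pass at 4.83 and 4.94; 2 other probes of Cacnb2 were at least 2.75-fold and at least 3.95-fold higher in brain. Of the gamma subunits tested, 4 of 5 passed, led by Cacng3 (7.90 ± 0.33, SD, n = 3) and Cacng5 (7.88, 7.91 and 7.83), at least 6.34-fold and at least 6.23-fold. Cacng4 stood at 6.04.

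A list of 25 genes of store-operated calcium entry and calcium stores, the route that potassium channels sustain, was read beside the channels; 21 were tested. In Th1 cells 5 were higher and 5 lower than in naive cells, when 13% of all genes were higher and 15.4% lower, and in Th2 cells 4 and 5, against 12.6% and 14.4%. Orai1, the pore of store-operated entry, rose by 1.77 and 1.80 log2 in Th1 and Th2 cells, and its sensor Stim1 fell by 1.88 and 1.79. Plcg2, a phospholipase that makes inositol trisphosphate, rose by 3.11 and 2.23, and the store pump Atp2a2 by 2.36 and 2.19. The inositol trisphosphate receptors Itpr2 and Itpr3 fell, by 2.17 and 2.52 in Th1 cells and by 1.97 and 2.41 in Th2 cells. In B cells 3 were higher and 3 lower than in naive cells (7.3% and 6.92% of all genes), and in dendritic cells 3 and 4 (13.2% and 9.83%). Brain gave 7 higher and 7 lower (25.7% and 26.6% of all genes). The difference of Orai1 was -3.93 log2, while Ryr2, the ryanodine receptor of brain and heart, was at least 30.1-fold and the pump Atp2b2 at least 28.0-fold higher in brain. The list's median difference lay between -0.03 and 0.09 in the comparisons of immune groups and at -0.19 for brain, against -0.05 to -0.01 and -0.15 over all genes.

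Of 30 other leukocyte ion channels and pumps, 22 were tested. Th1 cells had 4 higher and 7 lower than naive cells (13% and 15.4% of all genes), and Th2 cells 2 and 5 (12.6% and 14.4%). Atp1b1, a beta subunit of the sodium pump that restores the potassium gradient, was at least 25.8-fold lower in Th1 and at least 26.0-fold lower in Th2 cells, while the intracellular chloride channel gene Clic4 rose by 3.08 and 2.93. The proton channel Hvcn1 fell by 1.79 and 1.86 in Th1 and Th2 cells and rose by 1.97 in B cells. B cells had 2 higher and 3 lower than naive cells (7.3% and 6.92% of all genes). Dendritic cells had 5 higher and 5 lower (13.2% and 9.83%), with the exchangers Slc8b1 and Slc8a1 up by 3.96 and 3.04 log2, Slc8a1 being detected on 1 of 3 naive arrays. Brain had 6 higher and 8 lower (25.7% and 26.6%), with Atp1b1 at least 78.2-fold higher and Hvcn1 at -4.97 log2. The list's median difference was -0.02 for Th1, -0.25 for Th2, -0.27 for B cells and -0.23 for dendritic cells against naive cells, 0.10 for Th1 against Th2, 0.15 for dendritic against B cells and -0.21 for brain, against -0.05 to -0.01 and -0.15 over all genes.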

How the data were processed

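Total RNA was extracted with TRI reagent and copied into biotinylated cRNA, per the labels' protocols, and the submitters' processing notes name GenomeStudio without a version. The headers name the deposited intensity values as average signals, and these values were read as linear and without background correction. The authors deposited a detection p-value beside each of them. The authors' scaled signals equal these times 1 factor per array.

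The background was corrected with limma 3.58.1 (R 4.3.3) by normexp, with the control signal estimated through the detection p-values and 16 units added as offset. Quantile normalization on the linear scale came next, then log2. Probes with 1 symbol and detection p under 0.01 on at least 3 of 18 arrays were kept, and each gene was read from its probe of highest mean. This left 12094 genes and 84 channel genes, 36 of them with several detected probes. One model of 6 group means was fitted (lmFit, eBayes) with brain contrasted to the average of the 5 immune means. The model was tested on simulated data. Of the 121 channel genes, 37 were not tested. Promoters and plots were handled in Python 3.11.15 with matplotlib 3.10.9 and pandas 2.3.3.

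Titles gave the groups. Th1 and Th2 arrays of the same number deviated together (correlations of 0.592, 0.316 and 0.675), and no other pair of groups did in all 3. Genes were named by a rule: detection on all 3 arrays of an immune group, the 3 highest brain signals of a class, or passing between immune groups. The channel genes and lists were chosen with earlier results of these data known. The sources used here give neither slide nor scan date. The number of arrays limits the precision.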

Additional observations from a re-analysis of the deposited data

How the results depend on the processing

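The calls of 61 channel gene differences were followed through the alternative settings. These were all that passed between immune groups, and those against brain for genes detected on all 3 arrays of an immune group. None changed sign in 1758 readings, each of 1 difference in 1 setting. Of the readings, 1666 kept the call and 92 lost it, and 33 differences kept it in every setting. The brain differences of other channel genes, the 2 gene lists and the second probes were not followed in this way. With no background correction, an offset of 50, and the authors' scaled signal, the count for Th1 against naive fell from 8 to 5, 5 and 4, that for Th2 from 8 to 4, 4 and 3, and that for B cells from 11 to 6, 6 and 5. Median scaling and cyclic loess each gave 5 for Th1 against naive. For Th1 against Th2 the count of 2 became 1 with no background correction, 1 under median scaling and 1 with the authors' signal. With that signal dendritic cells against naive fell from 12 to 6, and the immune F-test from 18 to 10. Without a fold threshold the counts were 18, 17, 5, 23, 20 and 13 in the 6 immune comparisons, in the order given in the text, and 33 for the F-test. Leaving out each array in turn gave 7 to 9, 7 to 9, 1 to 3, 11 to 12, 11 to 13 and 7 to 8, then 52 to 57 for brain, 17 to 19 for the F-test and 44 to 46 for brain above each group. The replicate block gave 8, 9, 2, 11, 12, 7, 55, 18 and 45, and changed no count by over 1.5 times; a block for the paired Th1 and Th2 arrays alone also gave 2. Median scaling moved the median of all genes for brain from -0.15 to 0.47, cyclic loess to 0.21 and the authors' scaling to 0.17, and for B cells against naive from -0.03 to 0.33, -0.14 and -0.14. The cause of these changes was not tested. Genes near the detection limit have only bounds.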
